A study of Homo sapiens with 17 samples.

Results

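The snaR genes, a family of small noncoding RNA genes, were followed in PC3M prostate cancer cells through JMJD6 knockdown, HSF1 knockout, proteasome inhibition and heat shock. Members were all rows whose symbol starts with SNAR- in both deposited expression tables. There were 7: SNAR-C4, SNAR-D, SNAR-E, SNAR-F, SNAR-G1, SNAR-G2 and SNAR-H, out of 14085 genes in the table of the MG132 experiment and 13616 in that of the heat shock experiment. Being listed in both tables chose the members, and the family drew attention through SNAR-G1 and SNAR-F, which were among the genes most raised by the JMJD6 siRNA. The difference between JMJD6 siRNA and control siRNA is therefore given as a description, with no test, wherever it concerns these genes. SNAR-C3 was listed in the MG132 table alone, at no more than 0.00528 normalised counts, and was not a member.

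PC3M is a metastatic derivative of the androgen-independent PC-3 line. In the MG132 experiment, 4 groups of 2 libraries held cells with a non-targeting siRNA (siNT) given DMSO, siNT cells given 2.5 µM MG132 for 4 h, cells with an siRNA against JMJD6 (siJMJD6) given MG132 in the same way, and HSF1 knockout (KO) cells given MG132. In the heat shock experiment, 3 groups of 3 libraries held siNT cells without stress (basal), siNT cells heated to 42 °C for 1 h and left to recover for 2 h, and siJMJD6 cells heated and recovered in the same way. Transfections lasted 72 h. The labels name no siRNA for the KO cells and do not say whether their libraries, lettered A and B, came from separate clones, nor whether numbered libraries came from separate cultures. The p-values therefore cover the spread from library to library, which may be technical. Unstressed siJMJD6 and unstressed KO cells were not analysed here.

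A snaR is a short RNA that folds into a long imperfect hairpin. RNA polymerase III makes it from a promoter inside the gene, and transcription stops at a run of T. The RNAs are known to bind double-stranded RNA binding proteins, and they are abundant in testis and in many immortalised cell lines. MG132 blocks the proteasome, HSF1 is the main transcription factor of the heat shock response, and JMJD6 is a nuclear oxygenase of the JmjC family.

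The RefSeq table of GRCh38.p14 holds 28 SNAR- genes, 26 of them on chromosome 19. The 6 members on that chromosome were SNAR-E (chr19:46830585-46830704), SNAR-C4 (chr19:47939541-47939660), SNAR-G2 (chr19:49031669-49031787), SNAR-G1 (chr19:49037020-49037147), SNAR-D (chr19:50140202-50140320) and SNAR-F (chr19:50604963-50605085). SNAR-H lay on chromosome 2 (chr2:77954907-77955026). All 7 were 119 to 128 bases long. SNAR-G1 lay 124 bases from CGB1 and SNAR-G2 lay 102 bases from CGB2, both genes of the chorionic gonadotropin beta subunit. SNAR-D overlapped the long noncoding RNA gene LOC105372436, and SNAR-H overlapped LOC101927967 and LOC105374817. In GENCODE v29, SNAR-G2 lay inside the protein-coding gene AC008687.1 and outside its exons. The sources used here do not name the gene models that the authors counted.

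The sequences of the 2 snaR-G genes are shown because SNAR-G1 carried much of the family's signal, and because SNAR-G2, the other listed snaR-G gene, carried almost none. They were read from RefSeq's windows around the starts of CGB1 and CGB2 on GRCh38.p14, which hold the first 126 of the 128 bases of SNAR-G1 (chr19:49037020-49037145, plus strand) and the whole of SNAR-G2 (chr19:49031669-49031787, minus strand). Each is written 5′ to 3′ in the orientation that ends in the T run, and capitals mark the longest run of A.
SNAR-G1: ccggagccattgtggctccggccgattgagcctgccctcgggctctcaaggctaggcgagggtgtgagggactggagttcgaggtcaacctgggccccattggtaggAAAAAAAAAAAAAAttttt
SNAR-G2: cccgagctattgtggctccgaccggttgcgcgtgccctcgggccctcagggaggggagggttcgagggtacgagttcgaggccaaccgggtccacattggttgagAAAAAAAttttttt
In a global alignment the pair shared 99 identical bases over 127 columns, or 78.0%. The A run was 14 bases in SNAR-G1 and 7 in SNAR-G2, and the T run after it was 5 bases within the printed stretch and 7 bases. QuantSeq FWD, the library kit named in the labels, starts its cDNA from oligo(dT) and reads 1 tag near the 3′ end. At which bases the snaR tags began was not tested, nor whether the A runs bear on the levels of the 2 genes. A run of 14 A on either strand was found in 0.552% of 35116 RefSeq promoter windows cut to 126 bases, and a run of 7 A in 5.21%. The letters GTTCGA, the core of the B box of polymerase III promoters, occurred once in SNAR-G1 and at 2 places in SNAR-G2, against 1.05% of the windows on either strand. The longer form GTTCGANNC, which contains GTTCGA, occurred in SNAR-G2 (0.362% of the windows).

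All values below are the authors' normalised counts, and no value is divided by gene length, which hardly differs within the family. Column totals ran from 1505826 to 1819640, and the number of reads behind a value is not known. The tables were deposited separately and may have been normalised separately, so levels are compared within an experiment. Epithelial markers were present (KRT18 725 to 1401 across the MG132 libraries, KRT19 516 to 993), while CD14, a blood marker, stayed at or below 8.54. KLK3, a marker of luminal prostate cells, ran from 0 to 25.3 in the heat shock libraries. JMJD6 itself stood at 130 and 167 in the siNT MG132 libraries and at 16.6 and 26.6 with siJMJD6, and at 209 to 253 and 7.66 to 14.6 after heat shock. HSF1 stood at 175 and 285 in the KO libraries and at 1687 and 1884 in the siNT MG132 libraries. These values go with the labels, and no library was left out.

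Summed over the members, snaR signal was highest with siJMJD6 in both experiments. In the MG132 experiment the sum was 82.3 and 271 with siNT and DMSO, 47.6 and 302 with siNT and MG132, 1506 in each siJMJD6 library, and 123 and 55.96 in the KO libraries. Both siJMJD6 libraries stood above all 6 others, whose values overlapped across groups. In the heat shock experiment the sum was 44.4, 26.7 and 53.7 at basal, 83.6, 67.5 and 41.7 after heat shock with siNT, and 701, 663 and 629 after heat shock with siJMJD6. The siJMJD6 libraries again lay apart, and the basal and heat shock values of siNT cells overlapped. The ratio of group means, siJMJD6 to siNT, was 8.61 under MG132 and 10.3 after heat shock. On the scale of log2(normalised count + 1), used for all log2 values here, siJMJD6 minus siNT was 3.63 ± 1.18 (SE, n = 2 a group) under MG132 and 3.40 ± 0.34 (SE, n = 3 a group) after heat shock. Under MG132 it was 2.31 without the first siNT library. The sum differed by -0.31 ± 1.18 between MG132 and DMSO, by 0.61 ± 0.34 between heat shock and basal, and by -0.53 ± 1.18 between KO and siNT. In bulk RNA, more cells with snaR RNA and more snaR RNA per cell cannot be told apart.

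**Figure D1:**
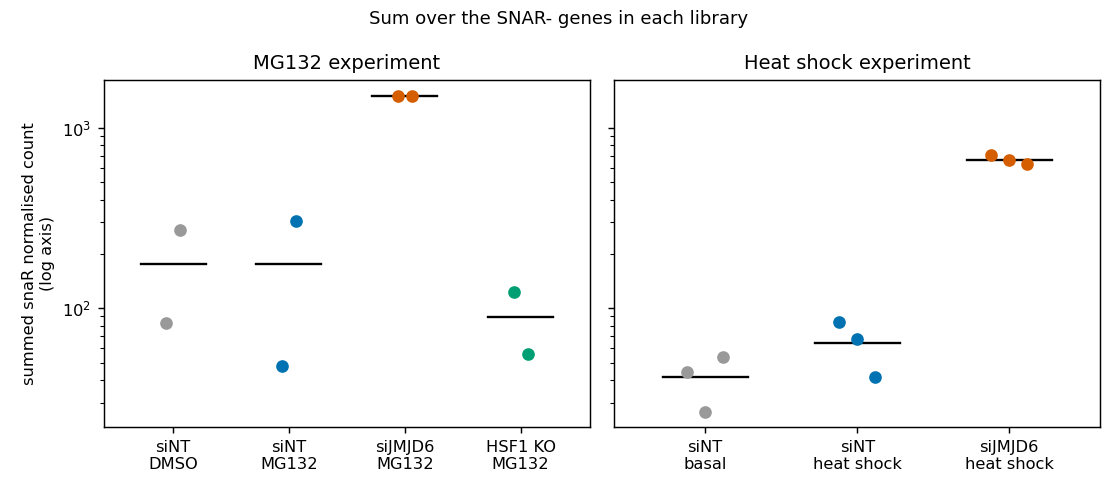
Sum of the SNAR- normalised counts in each library (points, log axis) with the group mean (line), by group. The MG132 experiment (2 libraries a group) and the heat shock experiment (3 a group) may have been normalised separately. The siJMJD6 libraries sit at 1506 and at 629 to 701, above every other library of their experiment.

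SNAR-F and SNAR-G1 made up most of the sum in siNT and siJMJD6 cells. SNAR-F held 36.4% to 56.8% of it in the 9 heat shock libraries, and SNAR-G1 22.5% to 52.5%. In the MG132 experiment SNAR-F held 25.8% to 74.3% outside the KO cells, and SNAR-D held as much as 41.2% in the first siNT MG132 library, the library with the smallest sum. The KO libraries were made up differently. There SNAR-F held 3.56% and 5.61% of the sum, and SNAR-H reached 63.1% and 42.5%, against 2.16% to 11% in the other 6 libraries.

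**Figure D2:**
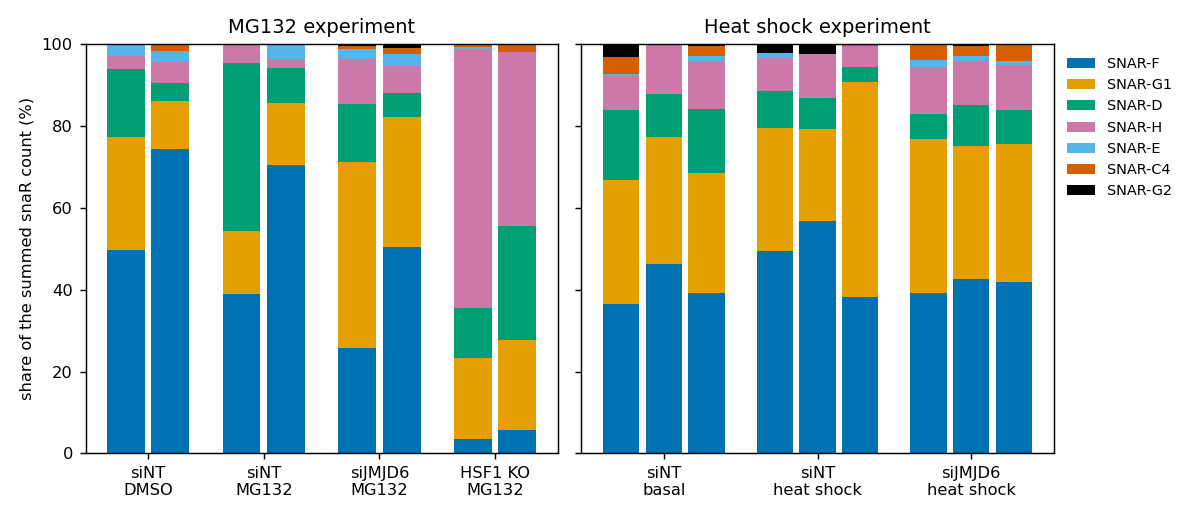
Share of each member in the summed snaR count (%), 1 bar a library, grouped by condition. SNAR-F (dark blue) and SNAR-G1 (orange) fill most bars, except in the HSF1 KO libraries, where SNAR-H (pink) holds 63.1% and 42.5%.

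SNAR-G1, the member upstream of CGB1, gave the widest gap between siJMJD6 and siNT under MG132. It stood at 22.6 and 32.0 with DMSO, 7.25 and 46.3 with MG132, 683 and 477 with siJMJD6 and MG132, and 24.2 and 12.4 in the KO cells. Both siJMJD6 libraries lay far above the highest value of any other group, and those groups overlapped. The limma estimate of siJMJD6 minus siNT was 4.86 ± 0.62 (SE, n = 2 a group). It was the second largest rise of the 9778 genes that passed a filter of 10 normalised counts in at least 2 libraries. In the heat shock experiment SNAR-G1 stood at 13.4, 8.30 and 15.7 at basal, 25.0, 15.2 and 21.9 after heat shock with siNT, and 264, 214 and 211 with siJMJD6. The difference of siJMJD6 from siNT was 3.43 ± 0.23 (SE, n = 3 a group), rank 9 of 9831 genes that passed the filter in at least 3 libraries.

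SNAR-F, the last member along chromosome 19, had the highest mean level of the family in siNT cells. It stood at 41.0 and 201 with DMSO, 18.6 and 213 with MG132, 388 and 760 with siJMJD6 and MG132, and 4.38 and 3.14 in the KO cells. In each of the numbered groups of that experiment the second library was the higher, and the KO libraries lay below all others. The siJMJD6 difference from siNT under MG132 was 3.07 ± 0.87 (SE, n = 2 a group), and without the first siNT MG132 library it was 1.35. After heat shock SNAR-F stood at 275, 283 and 264 with siJMJD6, against 41.4, 38.3 and 16.0 with siNT and 16.2, 12.3 and 21.1 at basal. Here the siJMJD6 values were close to each other and far above the rest. The difference from siNT was 3.17 ± 0.24 (SE, n = 3 a group), rank 17 of 9831.

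**Figure D3:**
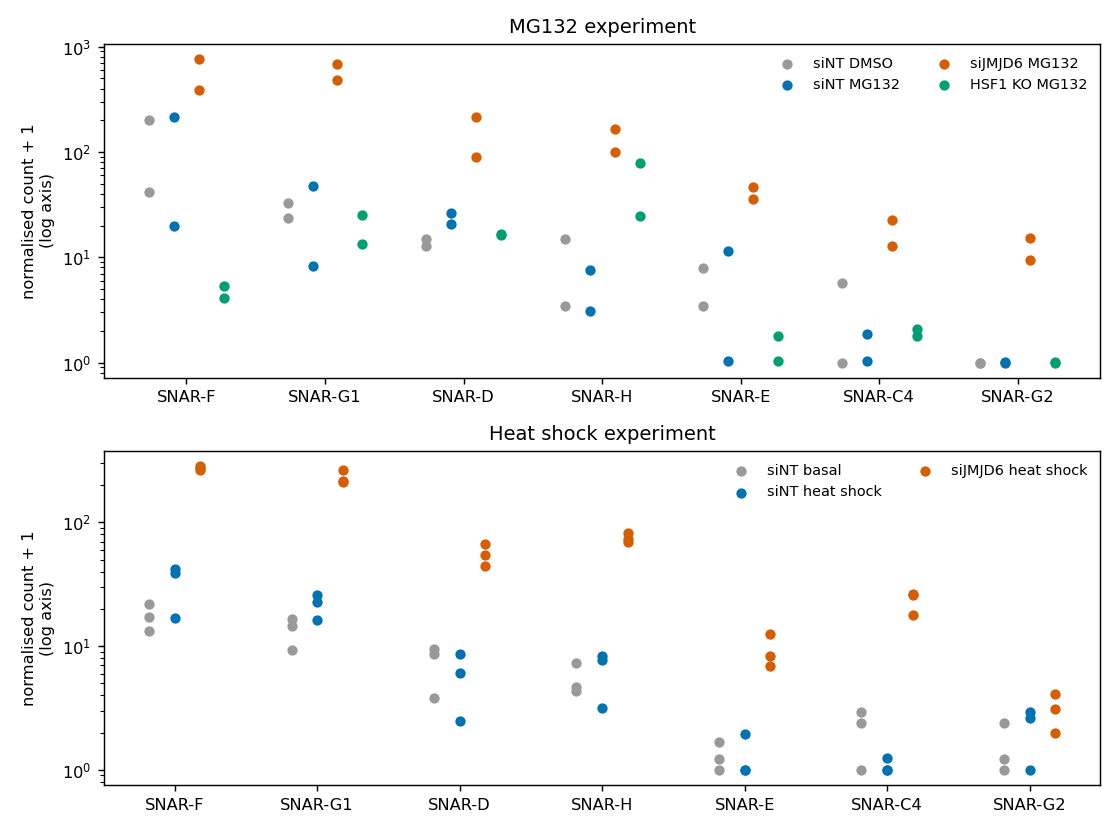
Normalised count plus 1 (log axis) of each member in each library, coloured by group, for both experiments. With siJMJD6 (orange) SNAR-F and SNAR-G1 reach 388 to 760 and 477 to 683 under MG132 and 264 to 283 and 211 to 264 after heat shock, while SNAR-F is at 4.38 and 3.14 in the KO libraries (green).

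SNAR-D and SNAR-H were less abundant and were also highest with siJMJD6. Under MG132, SNAR-D stood at 214 and 89.3 with siJMJD6 and between 11.9 and 25.5 in the other 6 libraries, and its difference from siNT was 2.58 ± 0.44 (SE, n = 2 a group). SNAR-H, the copy on chromosome 2, stood at 166 and 98.5 with siJMJD6, 2.10 and 6.54 with siNT, 2.46 and 14 with DMSO, and 77.6 and 23.8 in the KO cells. Its difference of siJMJD6 from siNT was 4.74 ± 0.72, rank 4 of 9778. After heat shock with siJMJD6, SNAR-D ran from 43.1 to 66.4 and SNAR-H from 68.7 to 80.9, while the 6 siNT libraries ran from 1.46 to 8.39 and from 2.13 to 7.35. In that experiment both passed the filter through the siJMJD6 libraries alone.

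The remaining 3 members were near the lower end of detection without siJMJD6. SNAR-C4 reached 11.7 and 21.4 with siJMJD6 under MG132 and 16.9 to 25.6 after heat shock, and stayed at or below 4.72 in every other library. SNAR-E reached 34.9 and 45.8 under MG132, against at most 10.4 elsewhere in that experiment, and 5.89 to 11.4 after heat shock, against at most 0.933. SNAR-G2 reached 8.42 and 14.2 under MG132, where all other libraries stood at or below 0.0168. After heat shock it stood at 2.10, 3.14 and 0.976 with siJMJD6 and 1.94, 1.61 and 0 with siNT, which overlapped. Values near 0 are too low for a fold to be read.

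For scale, siJMJD6 shifted much of the transcriptome. The groups did not overlap, with siJMJD6 higher, in 24.9% of genes under MG132 and 25.2% after heat shock, and 6.22% and 21.4% of genes were called higher than in siNT (7.35% and 24.9% lower) at a Benjamini-Hochberg adjusted p under 0.05 in limma. The snaR copies share sequence, and the sources used here do not say how reads that match several copies were assigned. The values of single members are therefore less certain than the sum.

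SNAR-F was higher after heat shock than at basal by 0.83 ± 0.24 (SE, n = 3 a group, limma adjusted p = 0.0381), a mean of 31.9 ± 13.9 against 16.5 ± 4.36 (SD). Over all genes, 2.86% were called higher. The third heat shock library, at 16.0, lay within the basal range, and the call was lost in 7 of the 9 fits without 1 library. The estimates there ran from 0.59 to 1.25, with adjusted p = 0.294 and 0.266 without heat shock library 1 or 2, 0.104 and 0.200 without basal library 1 or 2, and 0.0578, 0.0677 and 0.0622 without siJMJD6 library 1, 2 or 3. SNAR-G1 differed by 0.70 ± 0.23 (limma adjusted p = 0.0877), with 1 basal library above the lowest heat shock library. It passed the threshold without basal library 3 (adjusted p = 0.0300) or heat shock library 2 (adjusted p = 0.0350). SNAR-C4, SNAR-D and SNAR-H passed the filter only through the siJMJD6 libraries, so no test of them is given here.

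MG132 alone gave no call among the 4 members that passed the filter without the siJMJD6 libraries, SNAR-D, SNAR-F, SNAR-G1 and SNAR-H. In limma 0 of these 4 passed, 0 had an unadjusted p under 0.05, and 0.266% of all genes were called. SNAR-C4 and SNAR-E passed only through the siJMJD6 libraries and are left out of the count. SNAR-G1 differed from DMSO by -0.50 ± 0.62 and SNAR-F by -0.51 ± 0.87 (SE, n = 2 a group), and their MG132 libraries spread on both sides of the DMSO values. Without the first MG132 library, the estimates were 0.76 for SNAR-G1 and 1.21 for SNAR-F, and without the second DMSO library SNAR-F differed by 0.62. SNAR-D, at 19.6 and 25.5 against 13.8 and 11.9, was the member whose groups did not overlap, with MG132 higher, which 18.3% of genes shared. Its difference was 0.76 ± 0.44 (limma adjusted p = 0.911).

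In the KO cells under MG132 the members parted. SNAR-H was higher than in siNT cells by 3.19 ± 0.72 (SE, n = 2 a group), at 77.6 and 23.8 against 2.10 and 6.54. Over all genes, 0.276% were called higher. Outside the siJMJD6 libraries SNAR-H passed the filter through both KO libraries and 1 DMSO library. Its passing thus owes to the group where it was high, so no test of it is given here. The SNAR-H difference was 2.55 and 3.83 without siNT MG132 library 1 or 2. Without KO library A or B it was 2.36 and 4.02. SNAR-F differed by -3.78 ± 0.87, rank 9759 of 9778, and just missed the threshold (limma adjusted p = 0.0557, unadjusted p = 0.000739), where 1.00% of genes were called lower. It passed when the 2 groups were fitted alone (adjusted p = 0.0189). Without siNT MG132 library 1 the estimate was -5.50 (adjusted p = 0.00374), and without library 2 it was -2.05 (adjusted p = 0.310), and without KO library A or B it did not pass either (adjusted p = 0.284 and 0.369). Fits without 1 library of the other groups passed, with adjusted p from 0.0273 to 0.0437. SNAR-G1 differed by -0.10 ± 0.62 and SNAR-D by -0.51 ± 0.44, and neither was called. A difference between the KO and siNT cells also includes whatever else separates an edited line from a transfected one, and these cannot be told apart.

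The gap between KO and siJMJD6 cells under MG132 uses the siJMJD6 libraries that drew attention to the family, so it too is given without a test. KO minus siJMJD6 was -6.85 ± 0.87 (SE, n = 2 a group) for SNAR-F, the lowest of the 9778 genes, and -4.96 ± 0.62 for SNAR-G1. For SNAR-D it was -3.09 ± 0.44. SNAR-H, whose KO values came nearest to the siJMJD6 values, differed by -1.55 ± 0.72. For scale, 9.69% of genes were called lower in KO than in siJMJD6 cells.

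**Figure D4:**
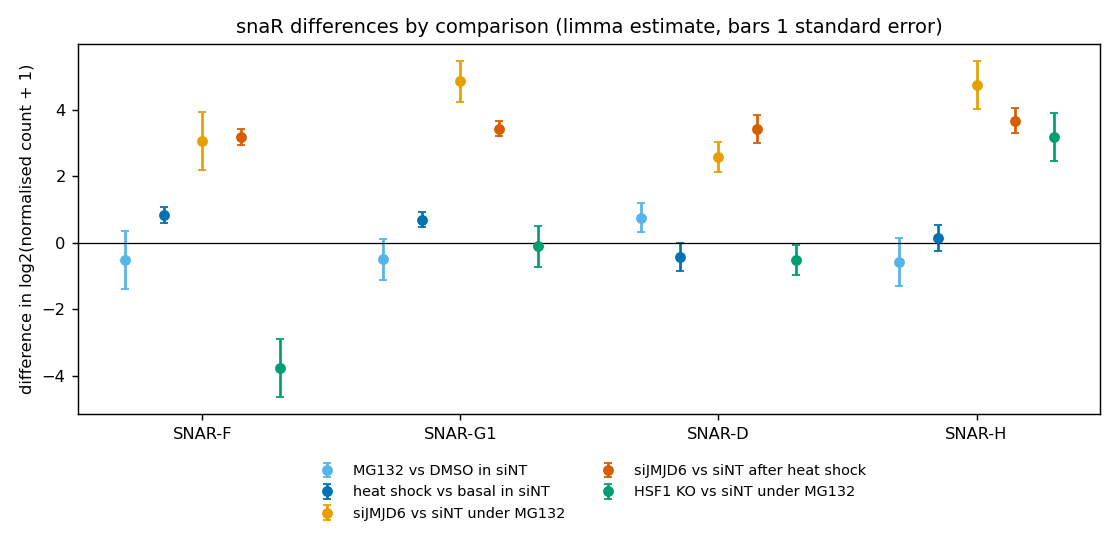
Estimated difference in log2(normalised count + 1) of 4 members in 5 comparisons (points, limma) with 1 standard error (bars). The siJMJD6 points lie between 2.58 and 4.86 for each member, and in the KO comparison (green) SNAR-F is at -3.78 and SNAR-H at 3.19. SNAR-D and SNAR-H in heat shock against basal rest on values of 8.39 or less.

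The members were correlated across libraries to differing degrees. Over the 8 MG132 libraries, Pearson's r on log2 values was 0.79 between SNAR-F and SNAR-G1, 0.91 between SNAR-D and SNAR-G1 and 0.25 between SNAR-F and SNAR-H. Over the 9 heat shock libraries the same pairs gave 0.97, 0.91 and 0.99. These are descriptions, since the libraries fall into treated groups and reads may be split between the copies. Among 4385 genes with a mean of at least 50 in both tables, those most like the family sum were NPTXR, CYHR1, EHD1, PRDX6 and SRP14, with a mean of the r in both tables from 0.955 to 0.966. NPTXR, which encodes a neuronal pentraxin receptor, stood at 177 ± 62.1 with siJMJD6 under MG132 against 26.5 ± 19.9 with siNT (SD, n = 2 a group), and at 160 ± 23.3 against 20.5 ± 3.20 after heat shock (SD, n = 3 a group). NPTXR was chosen for this pattern, so its values are a description.

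ILF2, whose product NF45 is a subunit of a double-stranded RNA binding complex, was lower with siJMJD6. It stood at 24.6 and 118 with siJMJD6 under MG132, against 285 and 184 with siNT, and at 182 to 216 against 328 to 403 after heat shock. It fell by 0.84 after heat shock (SE 0.11, limma adjusted p = 4.74e-08), and under MG132 its log2 difference was -2.06 ± 0.54 (limma adjusted p = 0.0261). That call was lost without siNT MG132 library 1 (-1.75, adjusted p = 0.172) or 2 (-2.38, 0.0545), siJMJD6 library 1 (-0.95, 0.142), or KO library A (0.0518) or B (0.0514), and with no filter (0.123). XPO5, the nuclear export receptor of small hairpin RNAs, fell by 1.47 under MG132 (limma adjusted p = 0.00461) and by 1.07 after heat shock (limma adjusted p = 8.86e-09). Of 14 tested genes for snaR-binding or small RNA-handling proteins, 1 rose and 3 fell with siJMJD6 under MG132 (6.22% and 7.35% of all genes), and 5 rose and 5 fell after heat shock (21.4% and 24.9% of all genes). The median difference of the list was -0.34 and -0.17, against -0.05 and -0.03 over all genes.

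Genes of RNA polymerase III were called in both directions with siJMJD6 under MG132, where 13.6% of all genes were called. Of 29 tested genes for its subunits and factors 1 rose, 3 fell and 25 were not called, where 6.22% of all genes rose and 7.35% fell. After heat shock 7 of 28 rose, 6 fell and 15 were not called, near the 21.4% and 24.9% of all genes. The medians were -0.11 and 0.00, against -0.05 and -0.03 over all genes. MAF1, which encodes the repressor of polymerase III, fell from 190 ± 6.32 with siNT to 73.2 ± 5.71 with siJMJD6 after heat shock (SD, n = 3 a group, limma adjusted p = 4.40e-11), and POLR3GL, for a subunit, rose from 167 ± 12.3 to 322 ± 23.2 (limma adjusted p = 1.80e-08). GTF3C6, for a subunit of TFIIIC, rose from 160 ± 5.67 to 311 ± 4.48 (limma adjusted p = 4.69e-09). GTF3C3, for another subunit of TFIIIC, fell by 0.67 (limma adjusted p = 0.000511). The other calls after heat shock were rises of GTF3C1, SNAPC4, CRCP, POLR1C and SNAPC1 and falls of GTF3A, POLR3E, POLR3D and BRF1. Under MG132 POLR3D (-1.24, limma adjusted p = 0.0217), MAF1 (-0.87, 0.0450) and GTF3C3 (-0.95, 0.0472) fell, and POLR3GL (1.00, 0.0404) rose. Whether these MG132 calls hold without 1 library was not tested. BRF1, for a part of TFIIIB, rose with heat shock in siNT cells, from 89.5 ± 2.93 to 211 ± 20.0 (limma adjusted p = 4.31e-09).

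Other small or structured RNAs were called in both directions with siJMJD6, with a median difference above that of all genes. Under MG132 5 of 35 tested rose and 2 fell, against 6.22% and 7.35% of all genes, and after heat shock 7 of 17 rose and 5 fell, against 21.4% and 24.9%. The medians were 0.46 and 0.67, against -0.05 and -0.03 over all genes. Rows near the floor could pass the filter through the libraries where they were high, so these counts and medians are descriptions. Under MG132 the called rises included RNU6ATAC (mean 18.6 with siJMJD6 against 1.89 with siNT) and RMRP (12.7 against 0.977). The called falls included MIR125B1 (5.57 against 56.6). RNY5, a Y RNA made by polymerase III, stood at 206 and 79.9 with siJMJD6 under MG132 against 19.6 and 27.4 with siNT, a difference of 2.42 ± 0.50 (limma adjusted p = 0.00857). That call was lost without siNT MG132 library 1 (2.19, adjusted p = 0.0725) or siJMJD6 library 1 (1.74, 0.0655), and with no filter (0.0582). After heat shock RNY5 differed by 0.67 ± 0.32 and was not called (limma adjusted p = 0.0831). RN7SL1, the RNA of the signal recognition particle, rose from 92.3 ± 8.48 to 231 ± 23.8 after heat shock (SD, n = 3 a group, limma adjusted p = 3.27e-09), and RN7SL2 from 37.5 ± 13.96 to 122 ± 25.4 (limma adjusted p = 4.92e-08). Under MG132 neither was called, with differences of 0.41 ± 0.26 for RN7SL1 (limma adjusted p = 0.328) and 0.10 ± 0.31 for RN7SL2 (limma adjusted p = 0.863). RNU5F-1, a variant U5 spliceosomal RNA, fell by 3.92 under MG132 (limma adjusted p = 0.000202) and by 3.11 after heat shock (limma adjusted p = 7.05e-16). RNY5 also rose with heat shock in siNT cells, from 8.36 ± 5.69 to 25.9 ± 4.52 (SD, n = 3 a group, limma adjusted p = 0.000595).

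**Figure D5:**
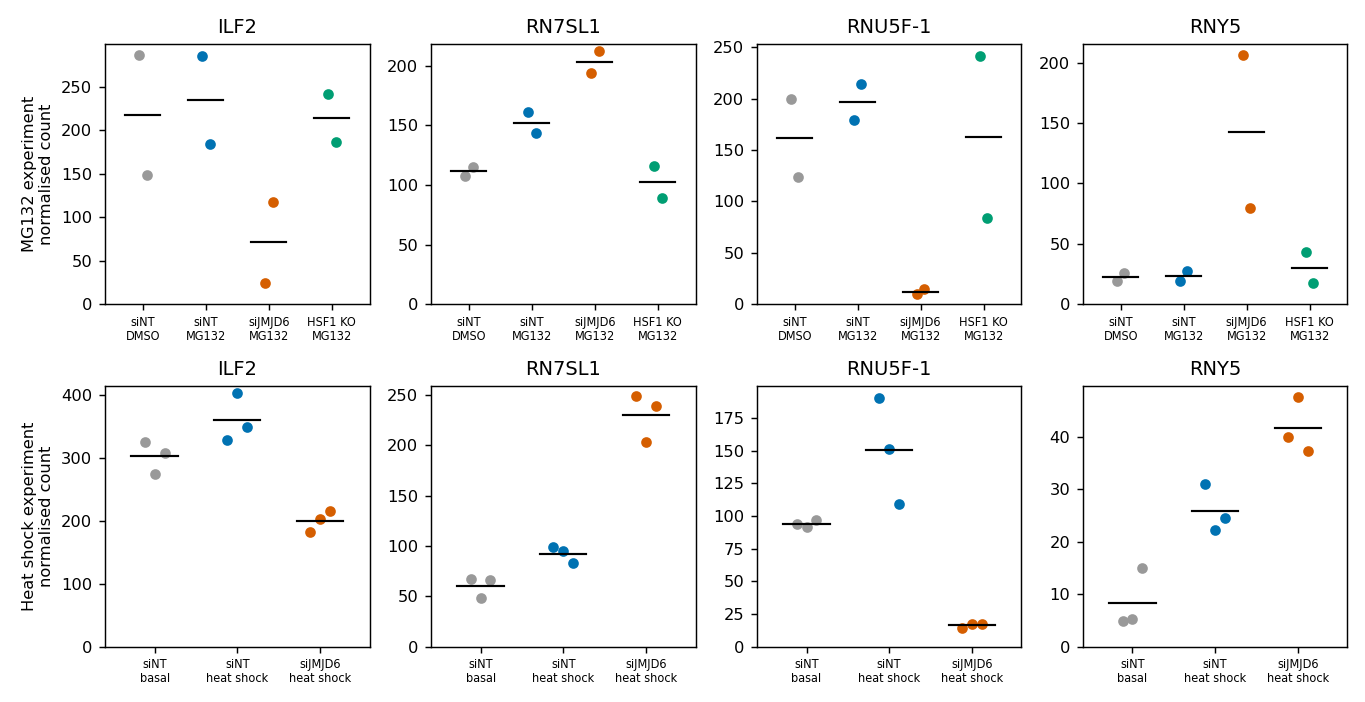
Normalised counts of ILF2, RN7SL1, RNU5F-1 and RNY5 in each library (points) with group means (lines), by group, for the MG132 experiment (top row) and the heat shock experiment (bottom row). RNY5 with siJMJD6 lies above every other library of its experiment, at 206 and 79.9 under MG132.

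The genes around the snaR-G pair were not raised together. Of 14 genes on a list of chorionic gonadotropin beta genes and their neighbours, 5 were in the tables, and the CGB genes were not among them. With siJMJD6 1 of the 5 rose and 1 fell under MG132, where 6.22% and 7.35% of all genes did, and 1 rose and 2 fell after heat shock, where 21.4% and 24.9% did. FTL, for ferritin light chain, rose from 677 to 1637 after heat shock (limma adjusted p = 7.64e-14), and GYS1, for muscle glycogen synthase, fell from 250.3 to 76.7 (limma adjusted p = 2.91e-13). RUVBL2, the nearest listed gene before SNAR-G2 at a distance of 15673 bases, stood at 111 against 150 (limma adjusted p = 0.00706).

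The nearest listed genes beside the other members also went both ways with siJMJD6. Over all members 10 such genes were tested, of which 1 rose and 2 fell under MG132, and 2 rose and 4 fell after heat shock, where 6.22% and 7.35%, and 21.4% and 24.9%, of all genes did. JOSD2, which encodes a deubiquitinase and lay 93771 bases from SNAR-F, rose in both experiments. It stood at 86.9 and 43.7 with siJMJD6 under MG132 against 4.16 and 6.55 with siNT, a difference of 3.33 ± 0.64 (SE, n = 2 a group, limma adjusted p = 0.00568). After heat shock it stood at 31.5, 29.6 and 16.7 against 13.5, 14.1 and 7.54, a difference of 1.08 ± 0.35 (SE, n = 3 a group, limma adjusted p = 0.0116). The groups did not overlap in either experiment. The call under MG132 was lost without siNT MG132 library 1 (3.06, adjusted p = 0.0516) and with no filter (0.0506), and that after heat shock without siNT heat shock library 3 (0.81, 0.0795) or siJMJD6 library 1 (0.92, 0.0661) or 2 (0.96, 0.0573).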

How the data were processed

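RNA of PC3M cells was measured in 17 libraries of 7 groups, prepared with QuantSeq FWD, per the labels' protocols. The deposited signal values are the authors' normalised counts, 1 table per experiment. Per the submitters' processing notes, FastQC 0.11.2, STAR 2.6.0 and HTSeq (version not stated) were used with build hg38. Scaling, gene filter and treatment of multi-mapping reads are not stated in the sources used. Values are not whole and low values within a library were nearly all distinct, so whole reads were not recovered and count models were not used.

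Log2(normalised count + 1) was modelled by limma 3.58.1 (R 4.3.3) using a variance trend, all groups of a table in 1 fit, and Benjamini-Hochberg adjustment over all genes with at least 10 normalised counts in 2 (MG132) or 3 (heat shock) libraries. Calls needed an adjusted p under 0.05. The 6 comparisons were those of each stress with its control, siJMJD6 with siNT under each stress, and KO with siNT and with siJMJD6. The script was tested on simulated data. The sum over SNAR- rows got an estimate with its SE and no p. Alternatives were other pseudocounts, no filter, equal column totals, quantile normalisation, 2 groups alone, a replicate block and each library left out.

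The members, lists and tests were chosen with earlier results of these data known. Named were the members, JMJD6 and HSF1, from each list up to 4 called genes with the smallest adjusted p (2 with the smallest p where none was called), of which the text gives a part, the 5 genes most like the sum, and nearest neighbours. Sequences and positions are from RefSeq (GRCh38.p14), aligned with Biopython 1.88. The other SNAR- genes of RefSeq were not analysed here.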

Additional observations from a re-analysis of the deposited data

How the results depend on the processing

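The differences of SNAR-G1 and SNAR-F between siJMJD6 and siNT, and between KO and siJMJD6, kept their direction under every alternative run. SNAR-F between siJMJD6 and siNT under MG132 was 3.07 with or without the filter and 1.35 to 4.80 without 1 library. SNAR-F between heat shock and basal did not pass with no filter (0.83), equal column totals (0.80), quantile normalisation (0.79) or the 2 groups alone (0.83), and ranged from 0.59 to 1.25 without 1 library. SNAR-F between KO and siNT passed with the 2 groups alone (-3.78) and ranged from -5.50 to -2.05 without 1 library. SNAR-G1 between heat shock and basal ranged from 0.45 to 0.90. SNAR-H between KO and siNT, given without a test, was 3.35 and 1.94 with pseudocounts of 0.5 and 10. With equal column totals it was 3.21, and with quantile normalisation 3.03. It ranged from 2.36 to 4.02 without 1 library. Alternatives for members other than SNAR-G1 and SNAR-F were added after seeing the data. The cause was not tested.

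Between MG132 and DMSO, leaving out 1 library gave both signs: -1.76 to 0.76 for SNAR-G1, -2.23 to 1.21 for SNAR-F, -2.04 to 0.48 for SNAR-C4, -2.35 to 1.11 for SNAR-E, -1.63 to 0.48 for SNAR-H and -1.63 to 1.01 for the sum. Between KO and siNT it did so for SNAR-G1 (-1.36 to 1.16), SNAR-E (-3.07 to 0.40) and the sum (-1.85 to 0.79), and between heat shock and basal for SNAR-D (-0.83 to 0.094) and SNAR-H (-0.11 to 0.60). The sum between siJMJD6 and siNT under MG132 ranged from 2.31 to 4.95. Where 1 library was left in a group, it was taken to vary like the others.

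Counts of called genes moved under MG132: 26 against DMSO became 6 with no filter and 10 to 31 without 1 library, and 1327 for siJMJD6 against siNT became 675 with no filter, 687 with the 2 groups alone and 351 to 1268 without 1 library. For KO against siNT, 125 became 29 with no filter, 213 with the 2 groups alone and 43 to 53 without 1 siNT MG132 or KO library, and for KO against siJMJD6, 2033 became 654 or 747 without a KO library. Same-numbered libraries deviated together with r = 0.37 between MG132 and DMSO, 0.04 between siJMJD6 and siNT under MG132, and -0.01 to 0.09 in the heat shock experiment. The numbers were not taken as pairs in the main fit, though a shared replicate effect between MG132 and DMSO remains possible. With the replicate block the estimates stayed the same (SNAR-G1 4.86 for siJMJD6 against siNT under MG132), no snaR call changed, and the count for MG132 against DMSO was 41. The reads behind a value are unknown, so counting error could not be separated from other spread.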

Other observations

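In the HSF1 KO cells under MG132, 7 of 35 tested other small RNAs were called lower than in siNT cells, 0 higher and 28 neither, where 1.00% of all genes were called lower and 0.276% higher. At an unadjusted p under 0.05 in limma 3 were higher and 16 lower, against 5.88% and 6.93% of all genes, and the median difference was -0.93 against 0.01 over all genes. Here too, rows near the floor could pass the filter through the libraries where they were high. MIR6516, called lower, had a mean of 0.0106 in KO cells against 15.4 in siNT cells. The counts and the median are therefore descriptions. SCARNA18, a guide RNA of Cajal bodies, stood at 0.0299 and 0.791 against 36.1 and 37.0 (limma adjusted p = 0.000515), and SCARNA22 at 9.33 and 9.79 against 94.7 and 118 (limma adjusted p = 0.000558). SNORA12, a snoRNA, stood at 10.4 and 18.8 against 76.2 and 100.2 (limma adjusted p = 0.00205), a call lost with no filter (adjusted p = 0.0710). TERC, the telomerase RNA, stood at 9.33 and 36.01 against 113 and 179.9 (limma adjusted p = 0.00816), a call that was lost without siNT MG132 library 2 (adjusted p = 0.106) or KO library B (adjusted p = 0.0771), and with no filter (adjusted p = 0.144).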
